A study of Homo sapiens with 4 samples.

Results

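Ribosomal protein loci were described as places in the genome that RNAs contact. A regulatory element was a member when its nearest gene was named as a ribosomal protein of the large subunit (RPL) or small subunit (RPS) and lay at distance 0 from it. By this rule 69 of the 33948 elements in the deposited table were members, at 52 genes. They comprised 49 active promoters and 20 active enhancers, and they held 264 of the 115357 RNA-element connections. The members are elements and the genes they are named after, not the RNAs. Against the current RefSeq gene bodies 64 of the 69 elements overlapped their gene, and 5 lay beside it, by 1.31 to 13.8 kb (the enhancers of RPL27A, RPS9 and RPL9 and promoters of RPL36 and RPL22). Connections were measured by GRID-seq, in which a linker joins an RNA to the DNA next to it inside fixed nuclei. The cells were K562, a human leukaemia line that carries the BCR-ABL1 fusion, with wild-type RUNX1 (WT) or with RUNX1 R320*. In R320* a stop codon truncates RUNX1, a transcription factor of blood cells. Cells of both genotypes were cross-linked for 45 minutes in 2 mM DSG and for 10 minutes in 3% formaldehyde. Each genotype had 2 libraries, which the authors merged into 1 score per connection, so no value below has a replicate error and no test of the genotype could be made. Whether these libraries are separate cultures, and whether the R320* cells are 1 clone, is not stated in the labels.

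Ribosomal proteins assemble with ribosomal RNA in the nucleolus into the large and small subunits of the ribosome. Their genes are among the most actively transcribed in dividing cells, are scattered over the chromosomes and have short introns, many of which carry small nucleolar RNAs (snoRNAs) that guide modification of ribosomal RNA. Their messenger RNAs usually begin within a run of pyrimidines, the 5′ terminal oligopyrimidine motif, through which translation of the whole family responds to growth signals. Loss of 1 copy of several of them causes Diamond-Blackfan anaemia, a failure of red cell formation, and loss of RPS14 contributes to the anaemia of the 5q- syndrome.

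The start sites of 8 members to which the results return are shown first. RefSeq promoter windows (GRCh38.p14, 250 bases before to 50 after the start) were matched for 38 of the 52 genes, and for 34 of these the start site lay inside a member element. Each sequence runs 5′ to 3′ on the gene's strand from 120 bases before the start to the 20th transcribed base. Capitals at the end of each mark the longest run of C and T that touches the 5 bases on either side of the start. The other capitals, in RPS27A and RPS26, mark TGTGGT, the core sequence that RUNX factors bind.
RPS27A (chr2:55232558-55232697, plus strand): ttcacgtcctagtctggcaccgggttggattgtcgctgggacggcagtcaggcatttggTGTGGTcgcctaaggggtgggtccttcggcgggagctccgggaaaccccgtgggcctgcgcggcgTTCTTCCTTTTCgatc
RPL34 (chr4:108620456-108620595, plus strand): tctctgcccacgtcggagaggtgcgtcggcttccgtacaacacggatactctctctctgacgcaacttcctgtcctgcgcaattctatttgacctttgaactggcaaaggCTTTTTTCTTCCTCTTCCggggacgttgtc
RPL37A (chr2:216498724-216498863, plus strand): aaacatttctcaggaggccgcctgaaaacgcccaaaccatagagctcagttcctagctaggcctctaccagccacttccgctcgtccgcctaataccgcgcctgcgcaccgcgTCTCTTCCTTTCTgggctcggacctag
RPS3A (chr4:151099508-151099647, plus strand): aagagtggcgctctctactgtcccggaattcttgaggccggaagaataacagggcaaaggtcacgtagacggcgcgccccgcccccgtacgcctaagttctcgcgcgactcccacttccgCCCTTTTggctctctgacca
RPL13 (chr16:89560562-89560701, plus strand): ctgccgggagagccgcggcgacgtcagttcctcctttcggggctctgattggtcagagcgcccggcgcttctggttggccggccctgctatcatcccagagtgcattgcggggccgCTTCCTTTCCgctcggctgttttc
RPL3 (chr22:39319604-39319743, minus strand): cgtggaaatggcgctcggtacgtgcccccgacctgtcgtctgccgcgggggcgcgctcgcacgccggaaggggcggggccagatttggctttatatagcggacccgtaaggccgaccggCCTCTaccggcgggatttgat
RPS19 (chr19:41860135-41860274, plus strand): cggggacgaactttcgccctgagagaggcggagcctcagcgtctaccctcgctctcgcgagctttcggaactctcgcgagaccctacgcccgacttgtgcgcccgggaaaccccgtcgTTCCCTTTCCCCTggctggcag
RPS26 (chr12:56041798-56041937, plus strand): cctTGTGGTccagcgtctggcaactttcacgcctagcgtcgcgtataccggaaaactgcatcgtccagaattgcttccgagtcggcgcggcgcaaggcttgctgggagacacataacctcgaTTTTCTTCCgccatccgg

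Where a gene had several promoter windows, the window with the longest pyrimidine run was kept, for members and other genes alike. Run lengths and motif counts therefore describe a start site picked for its run. The pyrimidine run had a median length of 11.5 bases over the 38 matched genes, and 28 of them (73.7%) had a run of at least 8. The run was 18 bases long at RPL34, 13 at RPL37A and RPS19, and 5 at RPL3. Among 6789 other genes with a promoter element at distance 0, the median run was 4 bases and 15.5% had a run of at least 8. Over all 27305 genes of the RefSeq table this share was 13.7%. The letters TGTGGT, on either strand, occurred in the promoter window of 9 of the 38 genes (23.7%), against 9.21% of the other genes with a promoter element and 13.2% of all genes. These 9 were RPL11, RPL15, RPL22, RPL22L1, RPL38, RPL4, RPS26, RPS27A and RPS3A. More RNAs were listed in R320* at 4 of them, fewer at 2, and equal numbers at 3, while the 29 genes without the letters had 7, 12 and 10. Over all other loci 38.3% had more and 32.9% fewer. The start site lay outside the member element at RPL4, among the 4, and at RPL27A, RPL9 and RPS29, among the 29. RPS26, among the 2, lies on chromosome 12, where 61.2% of other distance-0 connections were in WT only. A link of the letters to the genotype was not tested. CCGGAA, the core of ETS-factor sites, was found on either strand in 23 of 38 windows (60.5%) and in 28.8% of the other genes with a promoter element. AAGATGGC, the core of YY1 sites, was found in 4 (10.5%) against 4.98%. None of the 3 motifs contains another, and a match describes letters in the window only.

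Deposited scores were 0 or at least 1.2, and a 0 is read here as not listed. No source used here gives the scale of the score or the depth of the libraries. Of 14 erythroid marker genes, 7 were listed as RNAs, as were both partners of the BCR-ABL1 fusion, while 0 of 11 markers of lymphoid, myeloid and non-blood cells were. In all, WT had 82454 listed connections and R320* 84992. Comparisons below are with the 9666 other promoters and 14025 other enhancers at distance 0.

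Ribosomal protein promoters were contacted by few RNAs each, as were most other promoters. A promoter held 3.76 ± 1.83 distinct RNAs (SD over 49 promoters, both genotypes pooled), with a median of 4 and a highest value of 8, at RPS27A. Other promoters held 3.90 ± 5.06, with a median of 3, and 6.98% of them held more than 8. A single RNA was listed at 9 of the 49 ribosomal protein promoters (18.4%) and at 22.7% of the others. Ribosomal protein enhancers held 4 ± 2.49 RNAs (SD, n = 20), against 3.03 ± 3.01 at other enhancers. The table holds 2 blocks of elements that differ in width, and 19 of the 20 member enhancers were in the wider block, against 6986 of 14025 others. Within that block the means were 3.89 and 3.55. The members were wide, with a median of 5420 bp against 3009 bp for promoters and 3006 bp against 1488 bp for enhancers. Among elements of 3 to 10 kb the means were 3.92 and 4.32 at promoters, and the mean at ribosomal protein enhancers (3.00) was 0.28 below that of other enhancers, a reversed difference. The part of width in these differences was not tested.

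Counted per genotype, ribosomal protein promoters held 2.71 RNAs on average in WT and 2.86 in R320*, and other promoters 2.76 and 2.90. The enhancers held 2.95 in WT and 3.10 in R320*, and other enhancers 2.18 and 2.20. By subunit, elements at the 31 RPL genes held 2.67 in WT and 2.98 in R320*, and elements at the 21 RPS genes 2.96 and 2.85.

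Most contacts came from RNAs of the same chromosome. The authors type a connection as local, cis or trans, trans being an RNA of another chromosome. At ribosomal protein promoters 5 connections were local (2.72%), 131 cis (71.2%) and 48 trans (26.1%), against 6.53%, 73.2% and 20.3% at other promoters. At ribosomal protein enhancers 4 were local (5.00%), 61 cis (76.2%) and 15 trans (18.8%), against 6.04%, 72.6% and 21.4%. The excess of trans connections at promoters reversed among elements of 3 to 10 kb, where the trans share was 1.24 percentage points below that of other promoters of that width. At least 1 RNA of another chromosome was listed at 34 loci, and none at 18. A locus here pools all elements of 1 gene.

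In all 184 RNAs were listed at the 52 loci, 163 from protein-coding genes and 21 long noncoding RNAs. Of these, 167 were listed at 1 locus, 14 at 2 and 3 at more than 2. The 10 RNAs with the most loci gave 34 of the 264 connections (12.9%). Where the RNA gene could be placed, same-chromosome connections to ribosomal protein promoters spanned a median of 398 kb, and 37 of 128 (28.9%) spanned under 100 kb, against 477 kb and 20.8% at other promoters. For enhancers the medians were 447 kb and 547 kb.

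Sharing between genotypes followed distance. At ribosomal protein promoters 34 of 37 connections under 100 kb (91.9%) were listed in both genotypes, 32 of 54 between 100 kb and 1 Mb (59.3%), and 14 of 37 at 1 Mb and over (37.8%). Other promoters had 80.5%, 61.3% and 26.3%. At ribosomal protein enhancers the counts were 15 of 16, 16 of 26 and 9 of 20. Trans connections were shared least, with 7 of 63 in both genotypes (11.1%), 24 in WT only and 32 in R320* only. At other elements 11.1% of trans connections were shared as well. Over all types 130 member connections were in both genotypes, 62 in WT only and 72 in R320* only.

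**Figure D1:**
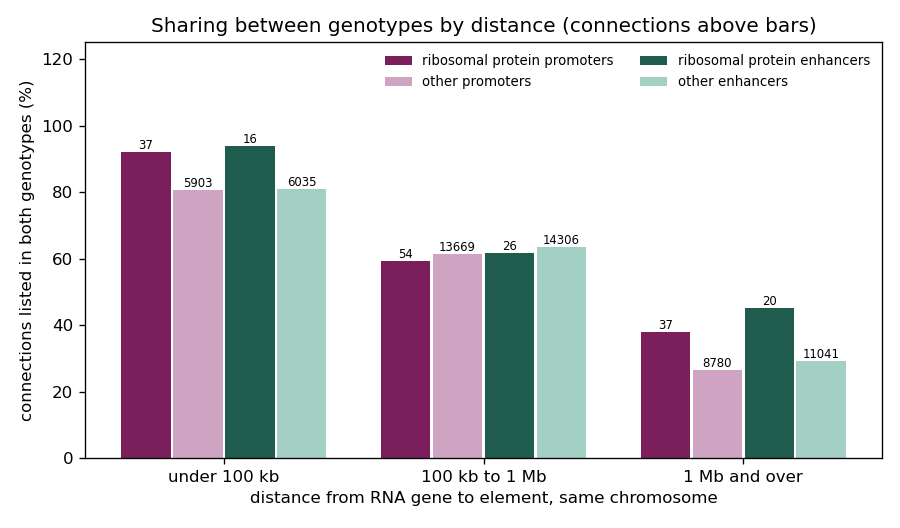
Percentage of same-chromosome connections listed in both genotypes (vertical axis) by distance between the RNA gene and the element (horizontal axis), at ribosomal protein and other promoters and enhancers. Numbers above the bars count connections. Ribosomal protein promoters go from 91.9% under 100 kb to 37.8% at 1 Mb and over, and other promoters from 80.5% to 26.3%.

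The share in both genotypes was 48.4% at ribosomal protein promoters (89 of 184 connections) and 45.0% at other promoters, and 51.2% at ribosomal protein enhancers (41 of 80) and 44.5% at other enhancers. Connections of 1 RNA to successive elements no more than 1 Mb apart were then chained into 1 contact, which can span more than 1 Mb. By this count 69.7% of member connections and 72.1% of others lay in a contact seen in both genotypes. The order of members and others was thereby turned. For trans connections counted this way the shares were 19.0% (12 of 63) and 35.1%. Members stayed higher for cis connections (85.4% against 81.8%) and local ones (8 of 9 against 81.7%).

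The locus with the most RNAs was RPL27A, a large-subunit protein whose gene lies on the short arm of chromosome 11. Its only element, an enhancer (hg38 chr11:8700671-8702093), lay 10.8 kb from the RefSeq body of RPL27A and inside the neighbouring gene ST5. It held 11 RNAs, 8 in WT and 8 in R320*, 5 of them in both. The globin RNAs HBG2 and HBE1, which encode the fetal gamma and embryonic epsilon chains, were listed there from 3446 kb and 3431 kb away. HBG2 scored 1.56 in both genotypes, and HBE1 scored 1.58 in WT and 1.57 in R320*. OR51B5, an olfactory receptor gene next to the globin cluster, scored 1.66 and 1.64. DENND5A, 437 kb away, scored 2.18 in WT and 2.35 in R320*. The local RNA, from ST5, was listed in WT only, at 2.46. Over the whole table ST5 had 4 connections in WT and none in R320*, so its absence is not particular to this element. TMEM41B, at 2.05, and IPO7, at 1.34, were listed in R320* only.

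RPS27A, which encodes a small-subunit protein fused to ubiquitin, held 8 RNAs at its promoter (chr2:55231091-55235990), 6 in WT and 7 in R320*, all cis. The 5 shared RNAs came from ASB3, CCDC88A, PPP4R3B, PSME4 and RTN4. Each of these 5 scored higher in R320*, by the most at PPP4R3B (2.19 in WT, 2.52 in R320*). PNPT1, an RNA-processing enzyme of mitochondria, was listed in R320* only, at 2.41. This RNA had 25 connections in R320* over the whole table and none in WT. ACYP2 was listed in WT only.

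RPS3A held 7 RNAs, 4 in WT and 6 in R320*. Its shared RNAs were FBXW7 (1.82 in WT, 2.21 in R320*), LRBA (1.94 and 1.83) and TMEM131L (1.44 and 1.37). SH3D19, whose gene lies 18.1 kb away, was listed in R320* only, at 3.00. Its RNA had 38 connections in R320* over the whole table and none in WT. ENTPD3-AS1, an antisense noncoding RNA of chromosome 3, was listed in R320* only, at 4.96. That score ranked 1 among the 32903 scores in the whole table listed in R320* only, whose median was 1.52, and 2 among all 63268 scores listed in a single genotype. The enhancer of the neighbouring SH3D19 held the same RNA in R320* only, at 4.87. The 2 elements are neighbours and may not be separate measurements.

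The loci RPL14, RPL9, RPS12, RPS25, RPL37, RPS20, RPS3, RPS7 and RPL5 followed with 6 RNAs each. At RPL5, whose protein helps to stabilise p53 when ribosome assembly fails, the genotypes shared 1 of the 6, CCDC18-AS1. Its sense partner CCDC18 was listed in R320* only, at 2.09 at the promoter and 2.23 at the enhancer. MTF2, a Polycomb-associated protein, was listed in WT only, at 1.92 and 2.10 at the same elements. Over the whole table MTF2 had 17 connections in WT and none in R320*. At RPS12 4 of the 6 RNAs were trans.

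**Figure D2:**
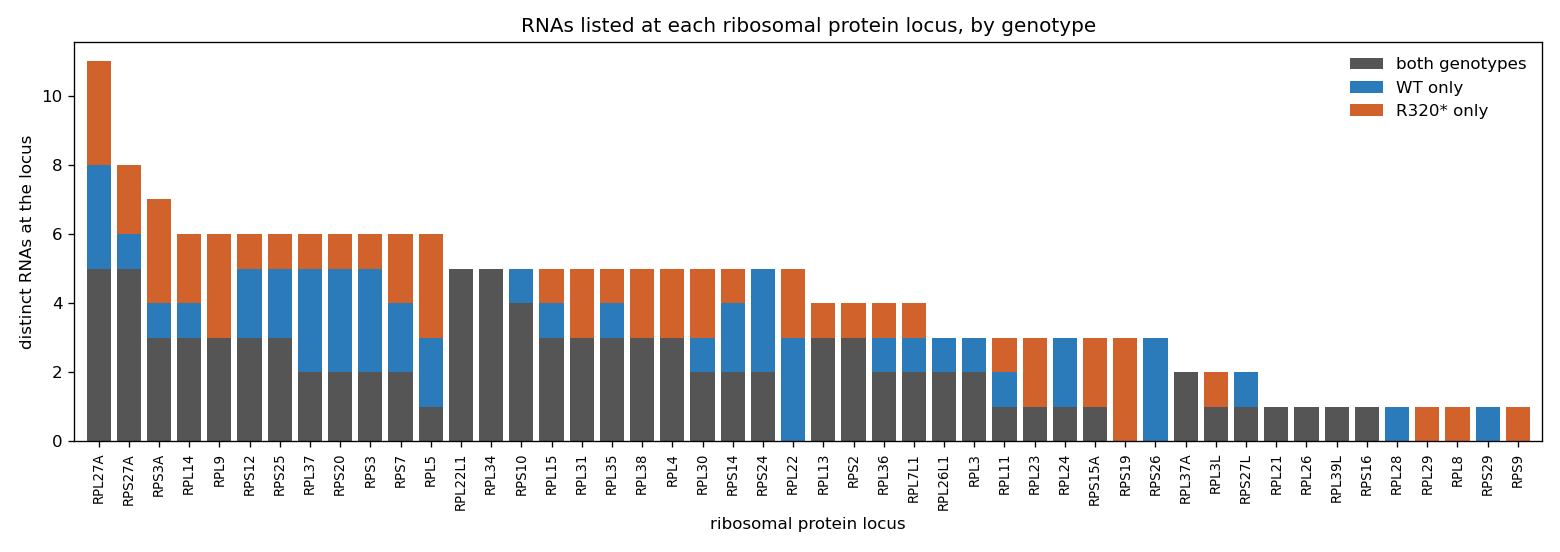
Number of distinct RNAs (vertical axis) at 48 of the 52 ribosomal protein loci (horizontal axis), split into RNAs listed in both genotypes, in WT only and in R320* only. RPL27A has 11, and RPL22L1 and RPL34 have 5 each, all in both genotypes.

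Some loci kept every RNA. RPL34 and the paralogue RPL22L1, a homologue of RPL22, each held 5 RNAs and shared all 5. At the RPL34 promoter OSTC, 27.7 kb away, scored 3.04 in WT and 2.89 in R320*. RPL34-AS1, the antisense RNA of RPL34 itself, scored 2.54 and 2.60 at the promoter and 3.60 in both genotypes at the enhancer. LEF1, a transcription factor of Wnt signalling, scored 1.80 and 2.20 at the promoter. At RPL22L1 the scores were 1.51 and 1.99 for FNDC3B, 2.19 and 2.34 for PHC3, 1.92 and 1.78 for PLD1, 1.69 and 1.65 for TNIK and 1.32 and 1.24 for SLC7A14-AS1. In all, 7 loci shared every RNA and 9 shared none, among them RPL22, with 3 RNAs in WT and 2 different ones in R320*. Many of these loci are small. Of the 7, RPL39L, RPL21, RPL26 and RPS16 held 1 RNA each and RPL37A 2. All of the 9 except RPL22 were listed in a single genotype (below) and could share none. These shares were not counted over other distance-0 loci.

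RPL37A was the only ribosomal protein gene also listed as an RNA, at its own promoter and enhancer. Its own RNA scored 2.50 in WT and 2.81 in R320* at the promoter, and 2.74 and 3.04 at the enhancer. XRCC5, the Ku80 subunit of DNA double-strand break repair, whose gene lies 291 kb away, scored 1.83 and 2.54 at the promoter and 1.88 and 2.59 at the enhancer. Both RNAs were higher in R320* at both elements. The readthrough RNA RPS10-NUDT3 was local at RPS10, at 1.99 in WT and 2.04 in R320* at the promoter and 2.03 and 2.08 at the enhancer. RPL34-AS1 at the RPL34 promoter, SPG7 at RPL13, SLC18B1 at RPS12 and TBC1D8 at the RPL31 enhancer were the other local RNAs in both genotypes. Of the 9 local connections 8 were in both genotypes, and all 8 scored higher in R320*. RPL37A and RPS10-NUDT3 are each counted there at a promoter and at its neighbouring enhancer, which may not be separate measurements. At other elements 2676 of the 4077 shared local connections were higher in R320*.

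RNA numbers differed by 2-fold or more at few loci. Of the 52 loci, 38 were listed in both genotypes with a mean of at least 2 RNAs. The number of RNAs was at least doubled in R320* at 4 of these loci and was lower by 2-fold or more at 2. The background over all distance-0 loci is 12.1% with more (1031 of 8521) and 10.1% with fewer (860 of 8521), so the counts at ribosomal protein loci lie near it. By element, 3 of 36 promoters had more and 2 fewer (background 12.5% and 9.16%), and 1 of 14 enhancers had more and 1 fewer (11.6% and 9.28%). Without a minimum on size, 21 loci had more RNAs in R320*, 16 had fewer and 15 equal numbers.

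RPS15A and RPL23 each went from 1 RNA in WT to 3 in R320*. At RPS15A SMG1, a kinase of nonsense-mediated decay, was shared at 2.51 and 2.39 at the promoter, and NEAT1 (1.34) and ENTPD3-AS1 (1.27) were listed in R320* only. At RPL23 FBXL20 was shared at 1.63 and 1.36, and CDK12 (1.31) and AC093423.3 (2.03) were listed in R320* only. Both loci kept their single WT RNA and held 2 others in R320*.

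RPL9 went from 3 to 6 RNAs. The replication factor RNA RFC1 (2.70 in WT, 2.88 in R320*), the cohesin cofactor PDS5A (2.20 and 2.61) and UBE2K (2.03 and 2.27) were shared there. URI1, TBC1D1 and APBB2 were listed in R320* only, at 2.76, 1.37 and 1.54. URI1 is encoded on another chromosome, and its gene holds RPL9P32, a pseudogene copy of RPL9. It was the only 1 of 44 trans pairs that could be placed whose RNA gene held a RefSeq pseudogene of the locus it was listed at, and the part of that copy in the connection was not tested. The member enhancer lies 1.31 kb outside the RefSeq body of RPL9. The LIAS promoter, which overlaps that body, held URI1 in R320* only as well, at 2.90. RPL31 went from 3 to 5.

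In the other direction RPL24 went from 3 RNAs to 1. CMSS1 was shared there at 1.66 and 1.51, and CBLB, a ubiquitin ligase of immune signalling, and TBC1D23 were listed in WT only, at 1.94 and 1.84. CBLB had 36 connections in WT over the whole table and none in R320*. RPS24 went from 5 to 2. DLG5 was shared at its promoter at 2.06 and 2.17 and ZMIZ1 at 1.58 and 1.40, while HERC4 (1.54) and ADK (1.23) were listed in WT only. RPL37, RPS20 and RPS3 went from 5 to 3. At RPS20 the Src-family kinase LYN (2.16 and 2.14) and TGS1, which completes the cap of small nuclear RNAs (2.58 and 2.75), were shared, and PLAG1 was listed in WT only, at 2.07. PLAG1 had 12 connections in WT over the whole table and none in R320*.

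A single genotype held all RNAs of 8 loci. RPS26, RPS29 and RPL28 were listed in WT only (3 of 52 loci, background 7.42%), and 5 of 52 in R320* only (background 7.49%), among them RPS19, RPL29, RPL8 and RPS9. RPS26 and RPS19 held 3 RNAs each and the others 1. The single RNAs of RPS29 (NEMF) and RPL28 (AC099520.1) had no R320* connection over the whole table, with 27 and 337 in WT. RPS26 held SARNP at 2.52, AC023055.1 at 2.43 and AC004936.1 at 1.46, all in WT. SARNP and AC023055.1 had no R320* connection over the whole table either, with 68 and 65 in WT. Its element is the only member on chromosome 12, where 61.2% of the other distance-0 connections were listed in WT only. What part that share of the chromosome has in the RPS26 values was not tested. RPS19, the gene most often affected in Diamond-Blackfan anaemia, held LIPE-AS1 (1.55 at the promoter, 1.23 at the enhancer), RAPGEF2 (1.62 and 1.23) and AC011462.1 (1.45), all in R320*. LIPE-AS1 had 21 connections in R320* over the whole table and none in WT. RPL8 and RPS9 held NEAT1 alone.

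Score differences were small. Among connections in both genotypes, the median of R320* minus WT was 0.06 at ribosomal protein promoters (SD 0.19 over 89 connections) and 0.13 at enhancers (SD 0.21 over 41), against 0.05 and 0.03 at other elements and 0.04 over the whole table. Of the 130 shared connections, 78 scored higher in R320* and 52 lower. A difference of 1 unit or more was seen at 0 of them, against backgrounds of 0.105% higher and 0.0833% lower. The differences with the largest rise were those of XRCC5 at RPL37A (above), DENND4A at RPL4 (1.51 to 2.10), CTNNB1, which encodes beta-catenin, at the RPL14 enhancer (1.24 to 1.79), FNDC3B at RPL22L1, PDS5A at RPL9 and LEF1 at RPL34. On the lower side stood TRAK1 at the RPL14 enhancer (2.06 to 1.68), FBXL20 at RPL23, CCDC18-AS1 at the RPL5 enhancer (fell by 0.26 from 1.76) and LINC01169 at RPL4 (2.00 to 1.81).

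**Figure D3:**
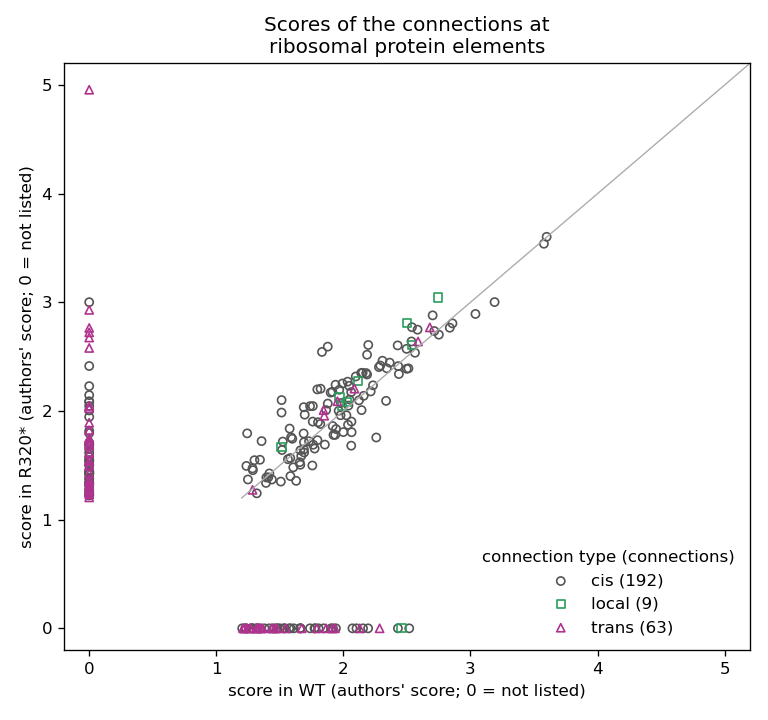
Score in R320* (vertical axis) against score in WT (horizontal axis) for the 264 connections at ribosomal protein elements, on the authors' scale with 0 for not listed, by connection type. The 130 shared connections lie along the line of equality, and ENTPD3-AS1 at RPS3A stands at 4.96 on the axis of R320* only.

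Of the 184 RNAs, 17 were listed at more than 1 locus. Loci of 1 RNA on different chromosomes make at least 1 of them trans, and only MEIOB, at RPL3L and RPS2 on chromosome 16, had none. SKI, a repressor of TGF-beta signalling encoded on chromosome 1, had the most loci. It was listed at RPS2 (2.68 in WT, 2.77 in R320*), RPL13 (2.59 and 2.64), RPL3 (2.09 and 2.21), RPL4 (1.95 and 2.09) and RPS12 (1.84 and 2.01). All 5 connections were in both genotypes and scored slightly higher in R320*. They made up 5 of the 7 trans connections that the genotypes shared. The other 2 were CAPRIN1, an RNA-granule protein, at RPL3 (1.85 and 1.96), and LMAN1 at RPS2 (1.29 and 1.27). Over the whole table SKI had 263 trans connections, of which 162 were in both genotypes, with a median of the higher score of 1.40, below each of its 5 values at ribosomal protein loci. The RPL4 promoter and that of its neighbour ZWILCH held identical SKI scores. In all, 23 member connections (8.71%) had both scores identical to those of the same RNA at another element of the chromosome, against 2.34% at other elements, so neighbouring elements are not always separate measurements.

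ENTPD3-AS1 was listed at 4 loci. It was cis at RPL14, 9.71 kb from the enhancer, at 1.69 in WT and 1.62 in R320*. It was trans and in WT only at RPL37 (1.32 at the promoter, 1.22 at the enhancer), and trans and in R320* only at RPS15A and RPS3A. NEAT1, the scaffold RNA of paraspeckles, was listed at RPL8, RPS7 (1.42), RPS15A (1.34) and RPS9 (1.31 at the promoter, 1.25 at the enhancer), in R320* only at all 4. NEAT1 had 803 connections in WT and 1136 in R320* over the whole table. Whether those totals bear on its absence from WT at these loci was not tested.

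Other RNAs had more than 1 locus or differed between genotypes in number of elements. In R320* only, AC097528.1 was listed at RPL15 and RPL27A (1.25), AC093423.3 at RPL5 (1.43 at the promoter) and RPL23, AC004949.1 at RPL31 (1.36 at the promoter) and ANKRD28 at RPL14 (1.27 at the promoter). In WT only, AC004936.1 was listed at RPS20 (1.55) and RPS26, EMSY, a partner of BRCA2, at RPS3 (1.66 at the promoter), IMMP2L at RPL14 (1.21) and RPS12 (1.37), LINC00534 at RPL7L1 (1.34 at the promoter) and HERC4 at RPS24. LINC02109, SLC39A11 and ADK differed between loci. LINC02109 was in both genotypes at RPL37 and in R320* only at RPL30 (1.70). SLC39A11 was in both at RPL38 (1.98 and 2.07) and in WT only at RPL22 (2.29 at a promoter). ADK was in WT only at RPS24 and in R320* only at RPL38 (1.82).

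**Figure D4:**
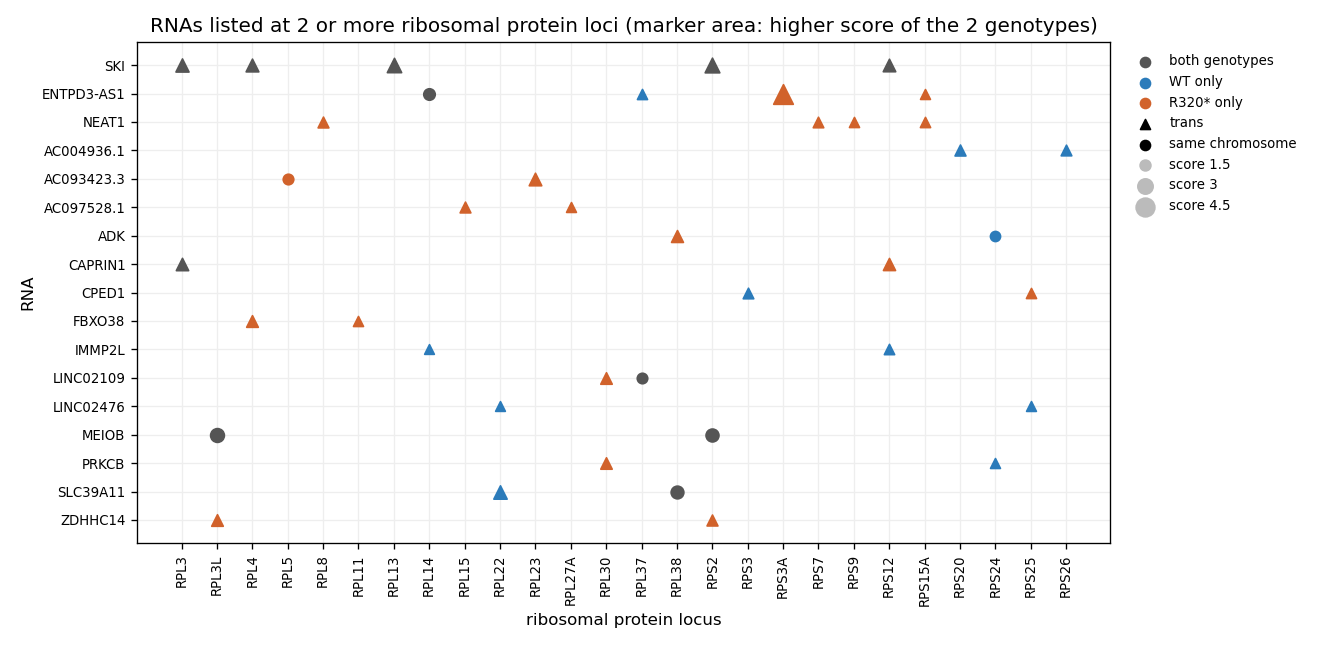
RNAs listed at 2 or more ribosomal protein loci (vertical axis) against the loci (horizontal axis). Colour gives the genotype, triangles mark trans connections, and marker area follows the higher score. SKI has 5 loci, all in both genotypes, and NEAT1 has 4, all in R320* only.

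Of the 7 shared trans connections, 6 lay at elements that overlap a snoRNA gene, a pattern singled out after its values were seen. RefSeq snoRNA genes overlapped 12 of the 49 ribosomal protein promoters and 51 of the 9666 others. Promoters with a snoRNA gene were wider, with medians of 7210 against 4873 bp at members and 6827 against 2998 bp at others. All of the 6 except SKI at RPL13 lay at elements over 10 kb wide. Among promoters of 3 to 10 kb, 1 of 29 member trans connections was shared, against 10.2% at others. The part of width in the snoRNA pattern was not tested. At the 12 members 21 of 56 connections were trans (37.5%), and 6 of the 21 were in both genotypes. At the 57 members without a snoRNA gene 42 of 208 were trans (20.2%), and 1 of the 42, SKI at RPL4, was in both. RPL4 is itself on the list of snoRNA host genes. The ZWILCH promoter, with identical SKI scores, overlaps the RefSeq body of RPL4 and 3 snoRNA genes, SNORD16, SNORD18A and SNORD18B. The matched start site of RPL4 lay outside its member element. Other distance-0 elements with a snoRNA gene had 40.4% trans connections, of which 24.4% were shared, and those without had 20.7% and 10.9%. The trans connections of ENTPD3-AS1 lay at snoRNA-bearing elements in 5.64% of cases and those of SKI in 4.18%, against 0.887% of all trans connections. The shares were 7.41% for CAPRIN1, 1.72% for LMAN1 and 0.349% for NEAT1. Of the 5 SKI values, 4 lay at such elements.

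The genes of the anaemia list were represented by 15 loci of 20. More RNAs were listed in R320* at 5 of them, fewer at 5 and equal numbers at 5. RPS14, the 5q- syndrome gene, held 4 RNAs in WT and 3 in R320*, with NDST1 shared at 2.43 and 2.41, and G3BP1, a stress-granule protein, in WT only at 2.19. RPL11, which acts with RPL5 on p53, held 2 in each genotype and shared HNRNPR, a nuclear RNA-binding protein, at 2.04 and 1.87. The paralogue genes were represented by 6 loci of 7, with 1 higher, 2 lower and 3 equal. The large-subunit loci had 13 higher, 6 lower and 12 equal of 31, and the small-subunit loci 8, 10 and 3 of 21. Among snoRNA host genes of the family the counts were 6, 5 and 2 of 13 loci. For comparison, 54 mitochondrial ribosomal protein loci had 23, 21 and 10, 24 translation factor loci had 7, 8 and 9, and 21 ribosome biogenesis loci had 11, 5 and 5. All 13318 other loci had 5096, 4388 and 3834.

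The name rule misses ribosomal protein genes whose elements the table names after a neighbour. Of 80 such genes in RefSeq, 28 had no element under their own name. The bodies of 20 of these were overlapped by an element of another name, and 8 (RPL10, RPL10L, RPL19, RPL32, RPL39, RPS28, RPS4X and RPS6) by none. RPL23A lies in the RAB34 promoter, which held 12 RNAs, 9 in WT and 8 in R320*, more than any member. ENTPD3-AS1 was listed there in WT only, at 4.36, the opposite genotype to RPS3A, and at the SURF1 promoter over RPL7A in R320* only, at 3.44. RPS18, in the VPS52 element, held 0 RNAs in WT and 4 in R320*, and RPL41, in the ZC3H10 element on chromosome 12, 5 in WT and 0 in R320*. RPL13A lies in the FLT3LG element, with 1 RNA in WT and 4 in R320*. Of the 20 genes, 9 had more RNAs in R320*, 6 fewer and 5 equal numbers.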

How the data were processed

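K562 GRID-seq libraries (2 WT, 2 R320*) were grouped by genotype as labelled. The submitters' processing notes name cutadapt 1.12, BWA, bedtools and the hg38 build. The authors deposited 1 score per connection and genotype, pooled over libraries. No source used here says how the score was made. A connection was taken as listed where its score was at least 1.2. Elements, their nearest gene, distance and connection type are the authors' own. Distinct RNAs were counted per element and, pooled over elements of 1 gene, per locus. Counts were compared as R320* over WT among those listed in both with a mean of at least 2 RNAs. No test of the genotype and no replicate spread was possible. The 95% binomial intervals and standard errors over elements serve only to judge the alternatives. Of 2637 RNAs, 2497 were placed on RefSeq (GRCh38.p14, which shares hg38 coordinates), 2427 by symbol and 70 by synonym. Named are the 10 loci with most RNAs, up to 6 loci per direction of RNA number, up to 6 listed in 1 genotype only, the 10 RNAs with most loci, the 5 RNAs per direction with the largest difference in elements, the 6 score differences per direction (1 per locus), loci with a local RNA and list members. A few loci are not reported here by name. RNAs named at these loci as examples, elements under other names, motifs and the snoRNA pattern were chosen after their values were seen. The members and lists were chosen with earlier results of these data known. Counting was tested on simulated data. Python 3.11.15 and pandas 2.3.3 were used.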

Additional observations from a re-analysis of the deposited data

How the results depend on the processing

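No paired analysis was possible because the table holds 1 pooled value per genotype. For the same reason leaving out each library and the replicate block were not run. Of 126 alternative values, 25 reversed or moved by more than the standard error over elements or connections, the 95% binomial interval of the share, or 1.5 times the count. These yardsticks are not replicate error. With scores of at least 1.5 the means were 2.98 RNAs at member promoters and 3.06 at enhancers, 7.69% of enhancer connections were trans, 63.5% were shared (19.6 percentage points above other enhancers), and 2 member elements had 2-fold more RNAs in R320* and 4 fewer, in place of 4 and 3. Without trans connections promoters held 3.24 RNAs, 60.3% of promoter and 63.1% of enhancer connections were shared, and 2 elements had 2-fold more RNAs and 6 fewer. With RNAs listed in both genotypes promoters held 3.44. In the wider block the enhancer difference fell from 0.97 to 0.34 RNAs. With a minimum mean of 4 RNAs, 1 element had more and 0 fewer. Pooling elements of 1 gene turned the difference from others from 0.44 to -0.61 RNAs. Chaining connections of 1 RNA across gaps of up to 1 Mb raised sharing to 69.7% and turned its difference to -2.40 points. Centring left median score differences of 0.018 at promoters and 0.088 at enhancers. The remaining alternatives were chosen after seeing the data. Among elements of 3 to 10 kb enhancers held 3.00 RNAs, a difference of -0.28, and the promoter trans difference was -1.24 points. Elements by position over any ribosomal protein gene gave a promoter difference of 0.00095 RNAs, an enhancer difference of 0.42 and 10 elements with 2-fold more. Leaving out SKI moved no share beyond its interval. The causes were not tested. Depth is unknown.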
